A study of Homo sapiens with 36 samples.

Results

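The 10 genes described here, ORC1, CDC6, CDT1, MCM2, MCM3, MCM4, MCM5, MCM6, MCM7 and MCM10, encode proteins that prepare replication origins for DNA synthesis. They were taken by name, as all probe sets that the array annotation gives to each gene alone. This gave 16 probe sets for 10 of the 11963 genes on the array with a probe set of their own, and each gene is described by its brightest probe set unless another is named. RNA was measured on 36 Affymetrix arrays in U2OS ER-HA-E2F1 cells, a human osteosarcoma line that stably carries a retroviral fusion of the estrogen receptor and HA-tagged E2F1 and in which 4-hydroxytamoxifen (OHT) moves the fusion to the nucleus. The cells received an Ambion NFYB siRNA, a Dharmacon NFYB siRNA, a Dharmacon control siRNA or a Sigma-Aldrich control siRNA, were starved for 24 h from 18 h after transfection, and then had 0, 4 or 8 h of 80 nM OHT, with 3 biological replicates of each combination. The 2 NFYB siRNAs are pooled as NFYB siRNA cells and the 2 control siRNAs as control siRNA cells, so that each arm holds 6 arrays at each time. Every array carries the E2F1 fusion, and no array had 4 or 8 h without OHT, so the effect of OHT and that of longer starvation cannot be told apart.

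Origins are licensed in G1, when the origin recognition complex, of which ORC1 is the largest subunit, binds DNA and, with CDC6 and CDT1, loads the ring-shaped MCM2 to MCM7 helicase. MCM10 acts later, when the loaded helicase is activated at the start of S phase. Many of these genes are known targets of E2F factors, which bind short GC-rich elements with a T-rich start, and NF-Y, of which NFYB is a subunit, binds CCAAT boxes. The study asked how NFYB contributes to the response of cells to E2F1.

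Before the signals, the promoters show which of these elements the genes hold. RefSeq promoter windows (GRCh38.p14, 250 bases before to 50 after a start site) were at hand for 8 of the 10 genes, all but MCM4 and MCM5. On both strands, 6 of the 8 windows held at least 1 of TTTCCCGC, TTTGGCGC and TTTCGCGC, as did 2.74% of all 35116 windows of this length. A further spelling, TTTGGCGG, was searched only after the sequences had been read. It was in 3 of the 8 windows and in 0.652% of all, and 7 of the 8 windows held at least 1 of the 4 spellings, against 3.35% of all. CCAAT, a commoner word, was in 6 of the 8 windows and in 34.6% of all. The windows of MCM2 and CDT1 had no CCAAT and that of ORC1 had none of these 4 E2F spellings. E2F elements spelled otherwise were not searched for.

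Promoter sequences are shown for 3 genes whose signal fell with OHT (ORC1, MCM3, MCM6) and 2 whose signal rose (CDC6, MCM7), 5′ to 3′ along the gene, from 250 bases before the start site to 29 after it, with the start site itself counted as 0. Capitals mark the 4 E2F spellings and CCAAT on either strand (ATTGG is CCAAT on the other strand), and motifs that overlap share their letters. The windows lie at chr1:52404394-52404673 (ORC1, minus strand), chr6:52284713-52284992 (MCM3, minus strand), chr2:135876414-135876693 (MCM6, minus strand), chr17:40287629-40287908 (CDC6, plus strand) and chr7:100101368-100101647 (MCM7, minus strand).
ORC1: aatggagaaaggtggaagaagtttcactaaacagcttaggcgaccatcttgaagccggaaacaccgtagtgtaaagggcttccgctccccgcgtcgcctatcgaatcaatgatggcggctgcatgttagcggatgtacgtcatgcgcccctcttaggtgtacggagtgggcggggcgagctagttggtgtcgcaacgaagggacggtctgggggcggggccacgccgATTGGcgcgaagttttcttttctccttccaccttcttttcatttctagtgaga
MCM3: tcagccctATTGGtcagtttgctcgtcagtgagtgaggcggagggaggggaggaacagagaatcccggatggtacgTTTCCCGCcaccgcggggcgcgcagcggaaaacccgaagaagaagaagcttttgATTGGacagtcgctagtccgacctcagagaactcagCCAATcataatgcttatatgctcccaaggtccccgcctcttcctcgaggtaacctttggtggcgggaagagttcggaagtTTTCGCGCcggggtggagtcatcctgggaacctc
MCM6: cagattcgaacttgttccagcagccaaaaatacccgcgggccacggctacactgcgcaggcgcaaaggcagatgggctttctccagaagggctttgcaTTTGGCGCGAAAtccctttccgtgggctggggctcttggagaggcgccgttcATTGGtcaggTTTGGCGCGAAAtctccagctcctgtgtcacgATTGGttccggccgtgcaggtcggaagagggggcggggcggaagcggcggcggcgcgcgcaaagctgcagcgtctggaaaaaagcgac
CDC6: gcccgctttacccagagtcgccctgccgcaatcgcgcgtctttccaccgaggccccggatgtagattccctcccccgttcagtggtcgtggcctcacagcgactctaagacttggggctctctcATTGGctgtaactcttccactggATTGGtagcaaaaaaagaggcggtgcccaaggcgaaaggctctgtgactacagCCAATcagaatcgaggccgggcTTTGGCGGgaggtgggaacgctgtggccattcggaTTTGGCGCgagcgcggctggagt
MCM7: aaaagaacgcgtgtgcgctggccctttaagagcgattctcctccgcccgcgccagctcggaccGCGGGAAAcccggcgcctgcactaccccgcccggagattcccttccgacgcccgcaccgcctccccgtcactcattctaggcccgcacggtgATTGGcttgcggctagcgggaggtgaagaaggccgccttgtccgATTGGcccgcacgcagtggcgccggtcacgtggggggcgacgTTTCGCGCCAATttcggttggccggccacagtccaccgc
The start site of the ORC1 window lies inside the RefSeq span of the gene rather than at its end, and for MCM7 the most upstream of 3 windows was used. MCM3 had TTTCGCGC across the start site, at -4 to 3, a further TTTCCCGC at -174 to -167 and 3 CCAAT boxes. In MCM6, TTTGGCGC overlapped TTTCGCGC of the other strand at -152 to -141 and again at -90 to -79. MCM7 had TTTCGCGC at -9 to -2 whose last base was also the first of a CCAAT. CDC6 had TTTGGCGG at -28 to -21, TTTGGCGC at 7 to 14 and 3 CCAAT boxes. A match of letters is a description of the window and was not tested for binding.

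**Figure D1:**
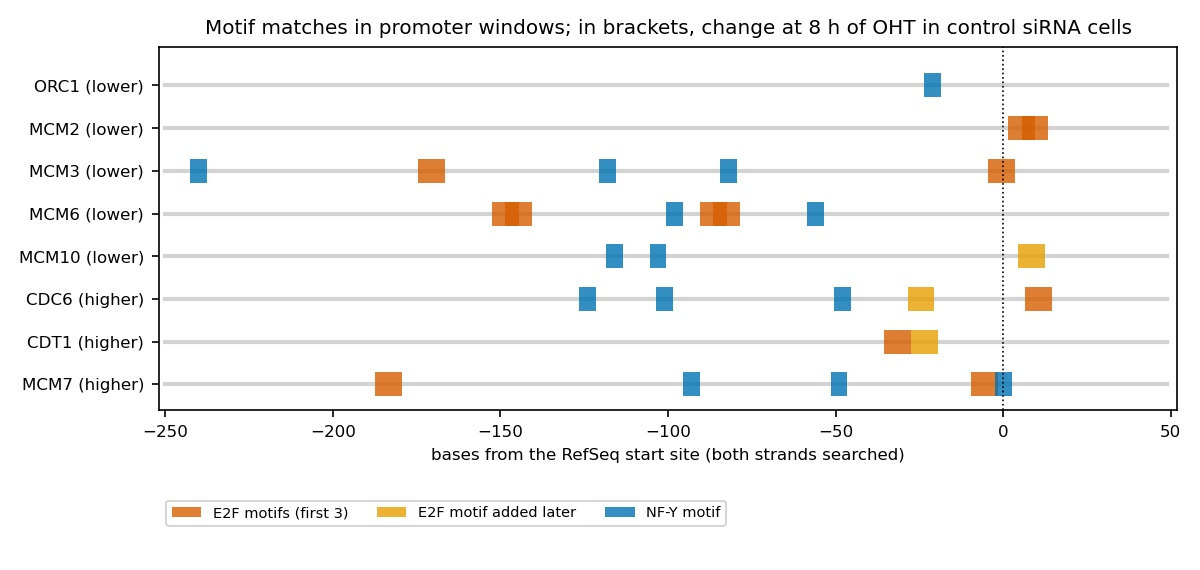
Positions of E2F spellings and CCAAT on either strand in the RefSeq promoter windows of 8 licensing genes, in bases from the start site; the label gives the direction of each gene's change at 8 h of OHT in control siRNA cells. Both the genes that were lower (ORC1, MCM2, MCM3, MCM6, MCM10) and those that were higher (CDC6, CDT1, MCM7) include windows with E2F spellings.

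Values are MAS5 signals, brought by the authors to the same trimmed mean of 500 on each of the arrays (2% of probe sets trimmed off either end). Signals of different probe sets are not compared, since each probe set has its own response. Of all probe sets, the share dimmer than that of the gene was 94.98% for MCM6 and between 87.5% and 93.3% for MCM2, MCM3, MCM4, MCM5, MCM7, MCM10 and CDC6. It was 64.6% for CDT1 and 50.7% for ORC1, whose probe set is the dimmest. The SD of log2 signal among the 3 arrays of 1 siRNA and time, pooled, ran from 0.07 for MCM4 and MCM7 to 0.22 for ORC1. The cells expressed mesenchymal VIM, SPARC and COL1A1, while COL1A2 and RUNX2 were dim, with mean signals of 23.5 and 16.5. The summed signal of 5 epithelial markers was 280 to 539, most of it EPCAM, and those of 4 leukocyte and 4 endothelial markers stayed at or below 109.5 and 171. With knockdown at 8 h of OHT S100A4 fell (log2 fold change -0.48, adjusted p = 0.0107), and none of the other markers was called. At 8 h of OHT in control siRNA cells the lists moved in part. Of the epithelial markers EPCAM rose (0.56, adjusted p = 0.00142), and CDH1 (-1.73, adjusted p = 0.0135) and KRT14 (-1.16, adjusted p = 0.0256), with mean signals of 13.8 and 34.8, fell. The endothelial TEK (-3.27, adjusted p = 8.30e-07) and VWF (-1.54, adjusted p = 0.0391), also dim with mean signals of 20.35 and 21.26, fell. The summed endothelial signal was 40.6 to 70.4 at 8 h, against 77.8 to 171 at 0 h. The mesenchymal COL1A1 (-0.68, adjusted p = 0.00107) and S100A4 (-0.40, adjusted p = 0.00361) fell too, and no leukocyte marker was called. Their part in the results was not tested.

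NFYB itself, the target of the knockdown, has 3 probe sets of its own. With the one of highest mean log2 signal, its signal was 53.9 to 81.7 in NFYB siRNA cells and 161 to 203 in control siRNA cells at 0 h, and 74.1 to 187 in NFYB siRNA cells and 579 to 717 in control siRNA cells at 8 h. The arms did not overlap at either time. The log2 fold changes of NFYB were -1.50, -2.03 and -2.43 at 0, 4 and 8 h (adjusted p = 1.38e-06, 3.15e-09 and 2.43e-11; limma across 22215 probe sets, Benjamini-Hochberg). The other probe sets gave -2.02 and -2.68 at 0 h, -2.25 and -2.92 at 4 h, and -2.56 and -3.58 at 8 h. NFYB also rose with OHT in control siRNA cells, with log2 fold changes of 1.79, 2.04 and 1.77 at 8 h over the 3 probe sets.

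With OHT the licensing genes moved in opposite directions. In control siRNA cells at 8 h against 0 h, all 10 were called, a change being called at an adjusted p under 0.05. ORC1, MCM2, MCM3, MCM5, MCM6 and MCM10 fell, which is 6 genes where 34.3% of all genes fell, and CDC6, CDT1, MCM4 and MCM7 rose, which is 4 genes where 21.1% of all genes rose. The 6 arrays at 8 h lay wholly outside the 6 at 0 h for the 6 genes that fell and for CDC6 and MCM4, where 23.7% of all genes separated so downwards and 15.4% upwards. The median log2 fold change of the 10 genes was -0.46, beside -0.16 over all genes. In bulk RNA, fewer cells in a given phase of the cycle and less RNA per cell cannot be told apart.

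ORC1, the subunit of the origin recognition complex that is degraded after licensing, fell most. Its signal in control siRNA cells was 178.6 to 217.7 with a median of 188.5 at 0 h, 84.5 to 117.9 with a median of 108.5 at 4 h, and 33.1 to 64.4 with a median of 53.8 at 8 h. No 2 of these ranges overlapped. The log2 fold change at 8 h was -1.88 (95% interval -2.17 to -1.59), a level 3.69-fold lower than at 0 h (limma, adjusted p = 4.26e-14). With an offset of 16 added before the logarithm it was -1.60. The file holds no detection calls, so whether the signal at 8 h stands above background was not tested.

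CDC6 and CDT1, which bring the helicase to ORC, rose by less. CDC6 had 915 to 1214 at 0 h (median 1141), 1240 to 1680 at 4 h (median 1414) and 1408 to 1855 at 8 h (median 1462) in control siRNA cells. The arrays at 4 h and those at 8 h lay above all arrays at 0 h, but overlapped each other. The log2 fold change at 8 h was 0.49 (0.32 to 0.66, adjusted p = 4.56e-06). Its other probe set gave 0.36.

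CDT1 had 206 to 249 at 0 h (median 237.5), 222 to 420 at 4 h (median 279) and 242 to 307 at 8 h (median 274.4). These ranges overlapped at each step, and 5 of the 6 arrays at 8 h exceeded every array at 0 h. The log2 fold change was 0.33 at 4 h (adjusted p = 0.00868) and 0.25 at 8 h (0.04 to 0.46, adjusted p = 0.0392). The call at 8 h was lost without any 1 of 6 arrays, namely Dharmacon control siRNA replicates 2 and 3 at 0 h, its replicates 1 and 3 at 8 h, and Sigma-Aldrich control siRNA replicates 1 and 2 at 8 h, with an adjusted p of up to 0.0944. That at 4 h was lost, at 0.05003, without Sigma-Aldrich control siRNA replicate 1 at 4 h. It was also lost with only the groups compared (adjusted p = 0.0662), by the methods' unequal-variance test (0.121) and with the Dharmacon control siRNA alone (0.208), and the call at 8 h with either control siRNA alone (0.0661 for Dharmacon and 0.213 for Sigma-Aldrich).

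The helicase subunits, which act as 1 ring of MCM2 to MCM7, did not move as 1 group. MCM5 fell most among them, with 1859 to 2218 at 0 h (median 2050), 1380 to 1671 at 4 h (median 1537) and 940.5 to 1103 at 8 h (median 1023). The 3 ranges were apart. The log2 fold change at 8 h was -0.98 (-1.12 to -0.84, adjusted p = 8.21e-15), a 1.98-fold lower level, and its dimmer probe set gave -1.12.

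MCM3 had 1926 to 2381 at 0 h (median 2147), 1554 to 1800 at 4 h (median 1638) and 1155 to 1311 at 8 h (median 1267), again without overlap. Its log2 fold change at 8 h was -0.77 (-0.89 to -0.65, adjusted p = 7.66e-14). MCM6 had 1930 to 2641 at 8 h (median 2252) and 3031 to 3958 at 0 h (median 3541), with a log2 fold change of -0.67 (-0.81 to -0.52, adjusted p = 4.87e-10). MCM2, with 1395 to 1844 at 8 h (median 1429) and 1948 to 2220 at 0 h (median 2149), changed by -0.48 (-0.63 to -0.34, adjusted p = 4.25e-07). For MCM6 and MCM2 too, all arrays at 8 h lay below all arrays at 0 h.

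MCM4 and MCM7 went the other way. MCM4 had 1204 to 1367 at 0 h (median 1320), 1650 to 1803 at 4 h (median 1743) and 1755 to 2009 at 8 h (median 1935). The arrays at 4 h and 8 h were all above those at 0 h, and the log2 fold change at 8 h was 0.56 (0.45 to 0.68, adjusted p = 6.09e-11). All 4 MCM4 probe sets were called higher at 8 h, by 0.28 to 0.56.

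MCM7 had 2257 to 2861 at 8 h (median 2527) and 1674 to 2258 at 0 h (median 1920), so that 1 array at 8 h fell just within the range of 0 h. Its log2 fold change was 0.40 (0.23 to 0.58, adjusted p = 0.000127), and its other probe set gave 0.36. MCM10, which helps to activate the loaded helicase, had 877 to 1084 at 8 h (median 1006) and 1255 to 1447 at 0 h (median 1356). It fell by 0.45 on the log2 scale (adjusted p = 4.06e-07), with no overlap between the times.

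**Figure D2:**
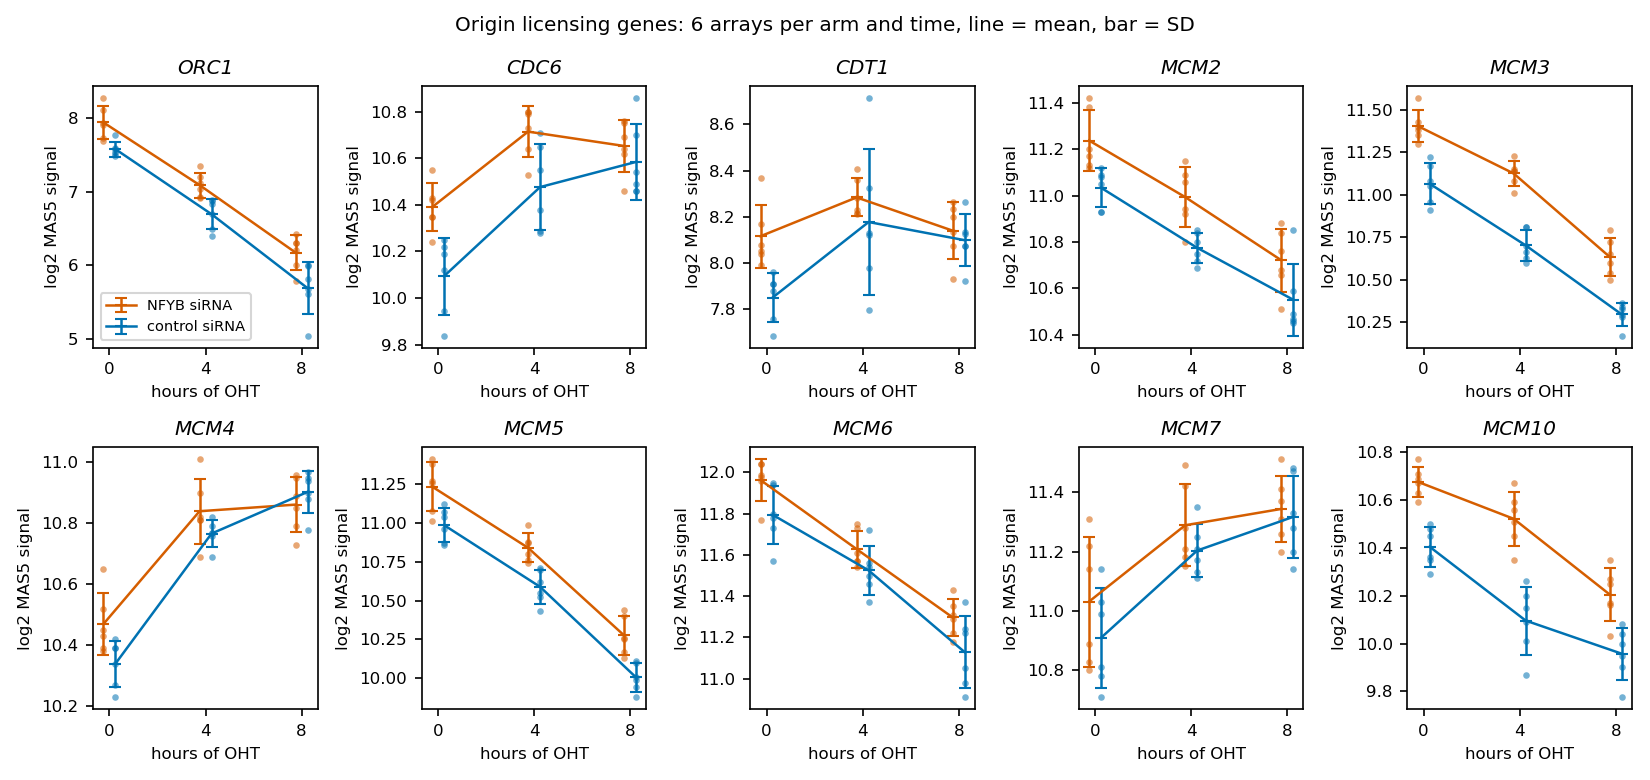
Log2 MAS5 signal of the 10 genes (y axes differ) against hours of OHT; points are arrays (6 per arm and time), lines join means and bars are SD, with NFYB siRNA in orange and control siRNA in blue. ORC1, MCM2, MCM3, MCM5, MCM6 and MCM10 descend over time in both arms. CDC6, MCM4 and MCM7 are higher at 8 h than at 0 h, with most of the rise by 4 h. In NFYB siRNA cells CDC6 is highest at 4 h, with mean log2 signals of 10.39, 10.72 and 10.65 at 0, 4 and 8 h.

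By 4 h the genes had reached different shares of their change at 8 h. At 4 h the same 6 genes were called lower and the same 4 higher, where 27.8% of all genes were lower and 17.0% higher. With the Dharmacon control siRNA alone MCM7 was not called at 4 h (adjusted p = 0.2465 in limma), nor without replicate number 1 (0.0639). With the Sigma-Aldrich control siRNA alone MCM2 (0.0909) and MCM5 (0.05795) were not called. Nor was MCM2 without replicate number 3 (0.0593), or MCM6 without replicate number 2 (0.0744). These fits hold fewer arrays. The mean change at 4 h was 75.5% of that at 8 h for MCM4, 77.9% for CDC6 and 72.1% for MCM7, and 131.6% for CDT1. It was 40.5% for MCM5, 40.7% for MCM6, 46.8% for ORC1, 47.1% for MCM3, 53.5% for MCM2 and 69.9% for MCM10. Whether these shares differ was not tested. Between 4 h and 8 h, ORC1 (-1.003), MCM5 (-0.59), MCM3 (-0.41), MCM6 (-0.40) and MCM2 (-0.22) were called lower and no member was called higher, where 12.5% of all genes were lower and 8.08% higher. With each array centred on its median, MCM4 (0.20, adjusted p = 0.0215) was called higher and MCM2 (-0.16, adjusted p = 0.217) was not called, giving 1 higher and 4 lower. The adjusted p of MCM2, 0.0257 as deposited, also reached up to 0.0620 without 1 of 6 arrays: Dharmacon control siRNA replicates 1 and 2 at 4 h and 2 and 3 at 8 h, and Sigma-Aldrich control siRNA replicates 1 and 2 at 8 h.

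Across the 36 arrays the log2 signals of ORC1 and MCM5 (r = 0.94), MCM3 and MCM5 (r = 0.93) and ORC1 and MCM6 (r = 0.91) varied most alike, and those of MCM4 and ORC1 most oppositely (r = -0.76). Of the 45 pairs of members, 23 had an r below 0. These arrays share their times of OHT, and with the means of the 12 conditions taken out the median r over the pairs was 0.04, from -0.62 to 0.51. The genes whose log2 signal over the 36 arrays most resembled the mean of the 10 standardized members, among 7956 genes, were BNIP3 (r = 0.90), TGM2 (r = 0.88), NFYC (r = 0.86), DCPS (r = 0.83) and TSPAN4 (r = 0.82). NFYC encodes another subunit of NF-Y. The mean takes in 6 members that fell and 4 that rose at 8 h of OHT in control siRNA cells. It is thus not the pattern of every member.

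In NFYB siRNA cells the response to 8 h of OHT had the same signs. Of the 10 genes, 6 were called lower and 3 higher (CDC6, MCM4, MCM7), where 33.7% of all genes were lower and 19.6% higher. ORC1 had 55.1 to 86.1 at 8 h (median 76.6) and 207 to 309 at 0 h (median 241.6), with no overlap, and a log2 fold change of -1.76 (-2.05 to -1.47). MCM5 changed by -0.96, MCM3 by -0.77, MCM6 by -0.67, MCM2 by -0.51 and MCM10 by -0.47, and in each of these the 6 arrays at 8 h lay below those at 0 h, where 23.7% of all genes separated so downwards. The changes of MCM4 (0.39), MCM7 (0.31) and CDC6 (0.27) were called. The second CDC6 probe set gave 0.13 and was not called (adjusted p = 0.130), CDC6 was not called with either NFYB siRNA alone (adjusted p = 0.0871 and 0.0889), nor MCM7 with the Dharmacon one alone (adjusted p = 0.114). The log2 fold change of CDT1 was 0.02 (-0.18 to 0.23, adjusted p = 0.875). Centring each array on its median moved the median change of all probe sets to -0.05, against -0.15 as deposited. The same number of members was then called in each direction, with ORC1 at -1.66 and CDT1 at 0.13.

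No member was called for the difference between the 8 h responses of NFYB siRNA cells and control siRNA cells, for which 0.293% of all genes were called, and 1 member, MCM4, had an unadjusted p under 0.05 in the same limma fit, as did 7.43% of all genes. The 14 other ways of fitting that gave this difference called none either. The difference was -0.17 for MCM4 (95% interval -0.33 to -0.01), -0.23 for CDC6 (-0.47 to 0.01), -0.23 for CDT1 (-0.52 to 0.07) and 0.12 for ORC1 (-0.29 to 0.53). For the other 6 genes it ran from -0.09 (MCM7) to 0.02 (MCM5), and their intervals reached from -0.34 to 0.22. The dimmer MCM4 probe sets gave -0.03, -0.07 and -0.20. The second CDC6 probe set gave -0.23 (-0.43 to -0.03), with an unadjusted p of 0.0249 in limma, and was not called.

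**Figure D3:**
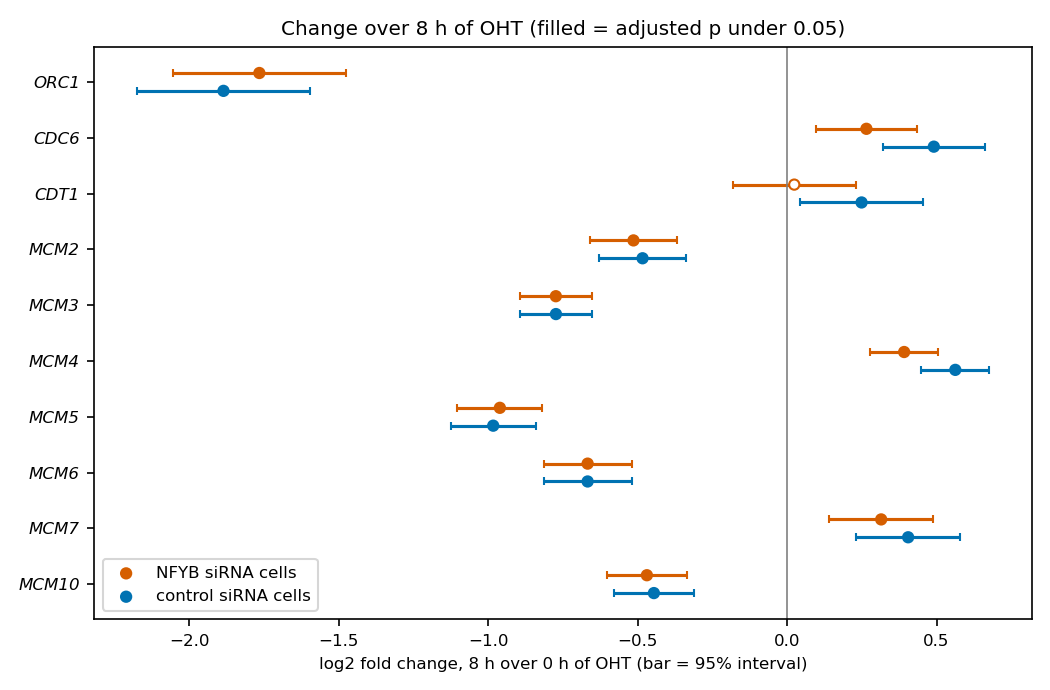
Log2 fold change at 8 h against 0 h of OHT in NFYB siRNA cells (orange, upper) and control siRNA cells (blue, lower), with 95% intervals; filled points had an adjusted p under 0.05. The intervals of the arms overlap for each gene, and the open point is CDT1 in NFYB siRNA cells, at 0.02.

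With knockdown of NFYB all members called were higher. At 0 h, MCM3, MCM5, MCM10 and CDC6 rose, which is 4 of 10 genes where 1.96% of all genes rose. At 4 h MCM3, MCM5 and MCM10 rose (1.81% of all genes), and at 8 h MCM3, MCM5, MCM10 and ORC1 (2.71% of all genes). None was called lower, while 2.37%, 1.77% and 2.57% of all genes were at 0, 4 and 8 h. The fold change was above 0 for 10, 10 and 9 of the 10 genes, with medians of 0.26, 0.23 and 0.17 beside medians between -0.01 and 0 over all genes. The comparisons at 0 h, 4 h and 8 h use different arrays, but the same siRNAs. With replicate number 1, 2 or 3 left out of all groups, the members called were 1, 1 and 0 at 0 h, 2, 2 and 2 at 4 h, and 1, 0 and 1 at 8 h, in fits with fewer arrays. The share of all genes called in those fits is not given here. The arms did not overlap for MCM2, MCM3, MCM10 and CDT1 at 0 h (1.32% of all genes were so separated upwards), for ORC1, MCM3, MCM5 and MCM10 at 4 h (1.13%), and for MCM3 and MCM5 at 8 h (2.06%).

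MCM3 was raised at each time. It had 2523 to 3037 (median 2692) in NFYB siRNA cells and 1926 to 2381 (median 2147) in control siRNA cells at 0 h. At 4 h it had 2058 to 2406 (median 2260) in NFYB siRNA cells and 1554 to 1800 (median 1638) in control siRNA cells. At 8 h it had 1451 to 1766 (median 1578) in NFYB siRNA cells and 1155 to 1311 (median 1267) in control siRNA cells. All 6 NFYB siRNA arrays exceeded all 6 control siRNA arrays at each time. The log2 fold changes were 0.34 (0.22 to 0.46), 0.42 (0.30 to 0.55) and 0.34 (0.22 to 0.46), with adjusted p of 0.000313, 1.14e-05 and 0.000322 in limma. With the siRNA as a random block the adjusted p were 0.0038, 0.00025 and 0.0035, and the call was lost without replicate number 3 at 0 h (0.24, adjusted p = 0.151) and without replicate number 2 at 8 h (0.26, adjusted p = 0.126).

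MCM10 had 1301 to 1635 (median 1486) in NFYB siRNA cells and 934 to 1223 (median 1111) in control siRNA cells at 4 h, without overlap. Its log2 fold change was 0.27 at 0 h, 0.43 at 4 h (0.29 to 0.56) and 0.25 at 8 h (adjusted p = 0.0130, 5.00e-05 and 0.0228). At 8 h 5 of 6 NFYB siRNA arrays exceeded all control siRNA arrays. There the adjusted p was 0.0676 with the siRNA as a random block and up to 0.371, with the Ambion NFYB siRNA alone, over the other settings that ended the call, and it reached up to 0.0701 without 1 of 5 arrays, namely replicates 1 and 3 of the Dharmacon control siRNA and each of the 3 of the Dharmacon NFYB siRNA.

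MCM5 had 1119 to 1389 (median 1221) in NFYB siRNA cells and 940.5 to 1103 (median 1023) in control siRNA cells at 8 h, again without overlap. Its log2 fold changes were 0.25, 0.25 and 0.27 at 0, 4 and 8 h (adjusted p = 0.0361, 0.0395 and 0.0172). With the siRNA as a random block none of these was called (adjusted p = 0.103, 0.110 and 0.0564), and over all settings that ended the calls the adjusted p reached 0.355, 0.357 and 0.318. Leaving out single arrays ended these calls too. That at 0 h was lost, at up to 0.121, without any 1 of Dharmacon control siRNA replicate 2, Sigma-Aldrich control siRNA replicates 1 and 3, Ambion NFYB siRNA replicate 1 and Dharmacon NFYB siRNA replicates 1, 2 and 3. That at 4 h was lost, at up to 0.117, without any 1 of Dharmacon control siRNA replicates 1, 2 and 3, Sigma-Aldrich control siRNA replicate 3, Ambion NFYB siRNA replicate 2 and Dharmacon NFYB siRNA replicates 1 and 2. That at 8 h was lost, at up to 0.0616, without Dharmacon control siRNA replicate 1 or Dharmacon NFYB siRNA replicate 2 or 3. The dimmer probe set of MCM5 gave 0.17, 0.25 and 0.32 and was called at 8 h.

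ORC1 had 55.1 to 86.1 (median 76.6) in NFYB siRNA cells and 33.1 to 64.4 (median 53.8) in control siRNA cells at 8 h, and the ranges overlapped. The log2 fold change was 0.36 at 0 h and 0.40 at 4 h, where it was not called (adjusted p = 0.178 and 0.146), and 0.48 at 8 h (0.19 to 0.77, adjusted p = 0.0421). This call was lost with an offset of 16 (0.38, adjusted p = 0.0580), with the siRNA as a random block (adjusted p = 0.143), with other settings up to 0.223, and, with an adjusted p of up to 0.153, without any 1 of 7 arrays at 8 h: Dharmacon control siRNA replicates 1 and 3, Sigma-Aldrich control siRNA replicate 1, Ambion NFYB siRNA replicates 1 and 3, and Dharmacon NFYB siRNA replicates 1 and 2. CDC6 had 1206 to 1500 (median 1338) in NFYB siRNA cells and 915 to 1214 (median 1141) in control siRNA cells at 0 h, where it rose by 0.30 (0.13 to 0.47, adjusted p = 0.0374). Its second probe set gave 0.21 at 0 h and was not called (adjusted p = 0.0943). CDC6 differed by 0.24 at 4 h and 0.07 at 8 h, neither called, and the call at 0 h was lost in other settings at an adjusted p of 0.0596 to 0.361, including the random block (0.0887) and, at up to 0.107, without any 1 of the 3 Sigma-Aldrich control siRNA or the 3 Dharmacon NFYB siRNA arrays.

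In the pooled fit the other members were not called at any time. In the fit of 12 groups MCM2 was called at 0 and 4 h (adjusted p = 0.0290 and 0.0195) and CDC6 at 4 h (0.0139). MCM6 was called at 8 h with the Dharmacon control siRNA alone (0.32, adjusted p = 0.00714). MCM2 gave log2 fold changes of 0.20, 0.22 and 0.17 at 0, 4 and 8 h, MCM6 0.17, 0.11 and 0.17, and CDT1 0.27, 0.11 and 0.04. MCM7 gave 0.12, 0.08 and 0.03 and MCM4 0.13, 0.08 and -0.04, the last being 0.02 with each array centred on its median. The second MCM7 probe set gave 0.14, 0.17 and 0.16 and was not called either. The 95% intervals at 8 h were 0.03 to 0.32 for MCM2, 0.02 to 0.32 for MCM6 and -0.16 to 0.07 for MCM4.

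**Figure D4:**
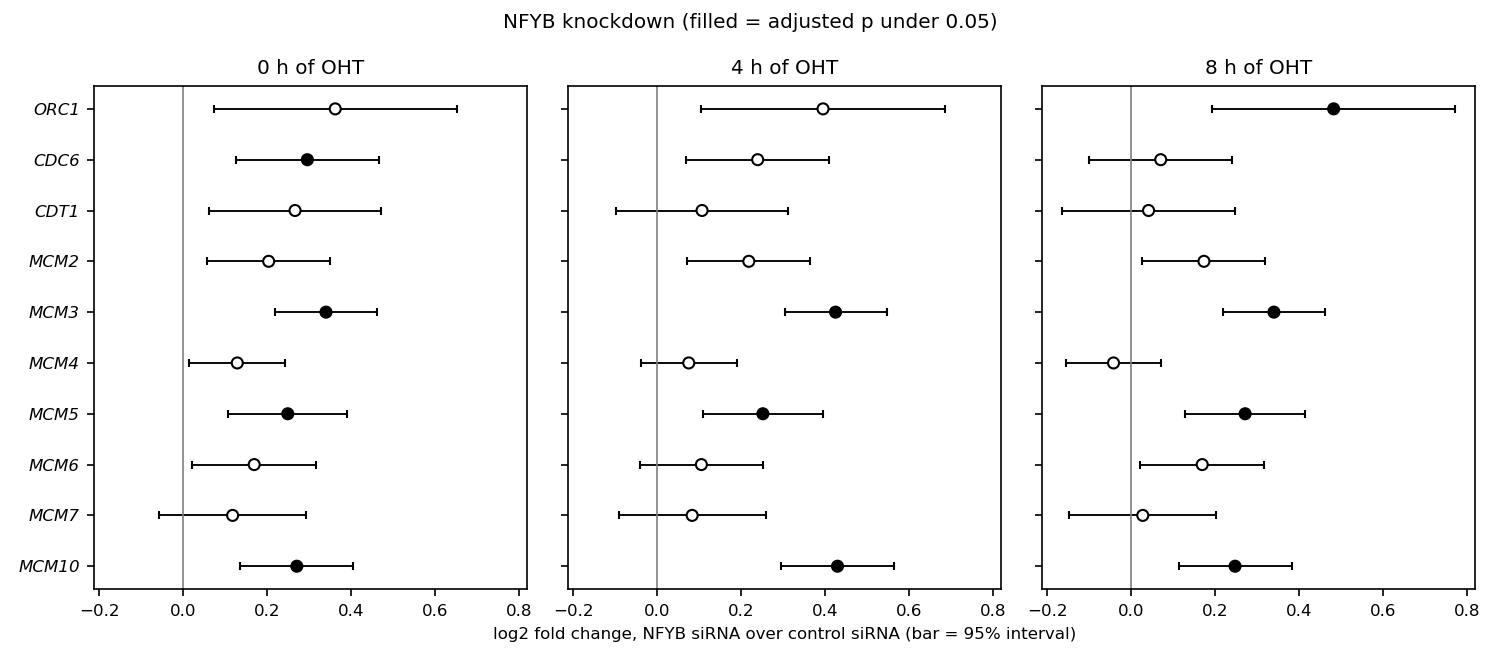
Log2 fold change of NFYB siRNA over control siRNA cells at 0, 4 and 8 h of OHT, with 95% intervals; filled points had an adjusted p under 0.05. MCM3, MCM5 and MCM10 are filled in all 3 panels, CDC6 at 0 h and ORC1 at 8 h, and MCM4 at 8 h is the 1 point below 0.

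The siRNAs of an arm did not act alike on each gene. Set against both control siRNAs, MCM3 was raised by 0.30, 0.43 and 0.35 at 0, 4 and 8 h with the Ambion NFYB siRNA and by 0.38, 0.42 and 0.33 with the Dharmacon one, all 6 called. MCM10 was called in 5 of these 6 comparisons, the exception being Ambion at 8 h (0.16, adjusted p = 0.164). MCM5 was called with the Dharmacon siRNA at each time (0.33, 0.29 and 0.36) and not with the Ambion siRNA (0.17, 0.22 and 0.18). MCM2 was called with Ambion at 0 h (0.29) and with Dharmacon at 4 and 8 h (0.24 and 0.28). MCM7 was called with Dharmacon at 0 and 4 h (0.31 and 0.19), and MCM4 with Dharmacon at 0 h (0.20). CDC6 was called with Dharmacon at 0 h (0.37) and Ambion at 4 h (0.30). ORC1 was called with Dharmacon at 4 h (0.53) and Ambion at 8 h (0.56). MCM6 and CDT1 were called in none. Averaged over the times, MCM5 was 0.14 higher with the Dharmacon than with the Ambion NFYB siRNA (adjusted p = 0.0365, and 0.115 in its dimmer probe set), and MCM7 0.26 higher (0.18 to 0.34, adjusted p = 4.93e-06), where 20.9% of all genes differed between these siRNAs. The same siRNA left less NFYB, by 0.59 on the log2 scale (adjusted p = 0.00021). The call for MCM5 was lost, at up to 0.101, without any 1 of 10 arrays: with Ambion, replicates 2 and 3 at 0 h and 1 and 3 at 4 h and at 8 h, and with Dharmacon, replicate 2 at 0 h, 1 at 4 h and 2 and 3 at 8 h.

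MCM7 had 2254 to 2535 with the Dharmacon NFYB siRNA, 1779 to 1894 with the Ambion NFYB siRNA, 2040 to 2258 with the Dharmacon control siRNA and 1674 to 1800 with the Sigma-Aldrich control siRNA at 0 h. Both Dharmacon siRNAs thus lay above both others. At 8 h MCM7 had 2654 to 2921 with the Dharmacon NFYB siRNA, 2345 to 2545 with the Ambion one, 2571 to 2861 with the Dharmacon control siRNA and 2257 to 2483 with the Sigma-Aldrich one, where both Dharmacon ranges again lay above both others. At 4 h this did not hold: MCM7 had 2482 to 2875 with the Dharmacon NFYB siRNA and 2273 to 2367 with the Ambion one, but the range of the Dharmacon control siRNA, 2243 to 2614, overlapped each of the others, the Sigma-Aldrich one having 2213 to 2366. Between the control siRNAs (Sigma-Aldrich minus Dharmacon), MCM7 differed by -0.20 and CDC6 by -0.21, while MCM6 differed by 0.14 and MCM10 by 0.13, where 30.7% of all genes differed. The second CDC6 probe set gave -0.10 and was not called (adjusted p = 0.150). The CDC6 call was lost without replicate number 2 (adjusted p = 0.1925). A dimmer MCM4 probe set was called between the control siRNAs (-0.17, adjusted p = 0.0368) and between the NFYB siRNAs (0.21, adjusted p = 0.0126). The brightest MCM4 probe set was called in neither. The call of MCM6 was lost, at up to 0.0914, without any 1 of Dharmacon replicate 1 at 0 h, 2 at 4 h and 1 at 8 h and Sigma-Aldrich replicate 2 at 0 h, 3 at 4 h and 3 at 8 h. That of MCM10 was lost, at up to 0.0852, without any 1 of Dharmacon replicates 1 and 3 at 0 h, 3 at 4 h and 3 at 8 h and Sigma-Aldrich replicates 1 and 3 at 0 h, 3 at 4 h and 1 and 2 at 8 h. With each array centred on its median the split was 0 higher and 4 lower: MCM6 and MCM10 were no longer called, and MCM2 (-0.16) and MCM3 (-0.13) were. MCM7 thus differed by 0.26 between the NFYB siRNAs, beside 0.12 with knockdown at 0 h.

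**Figure D5:**
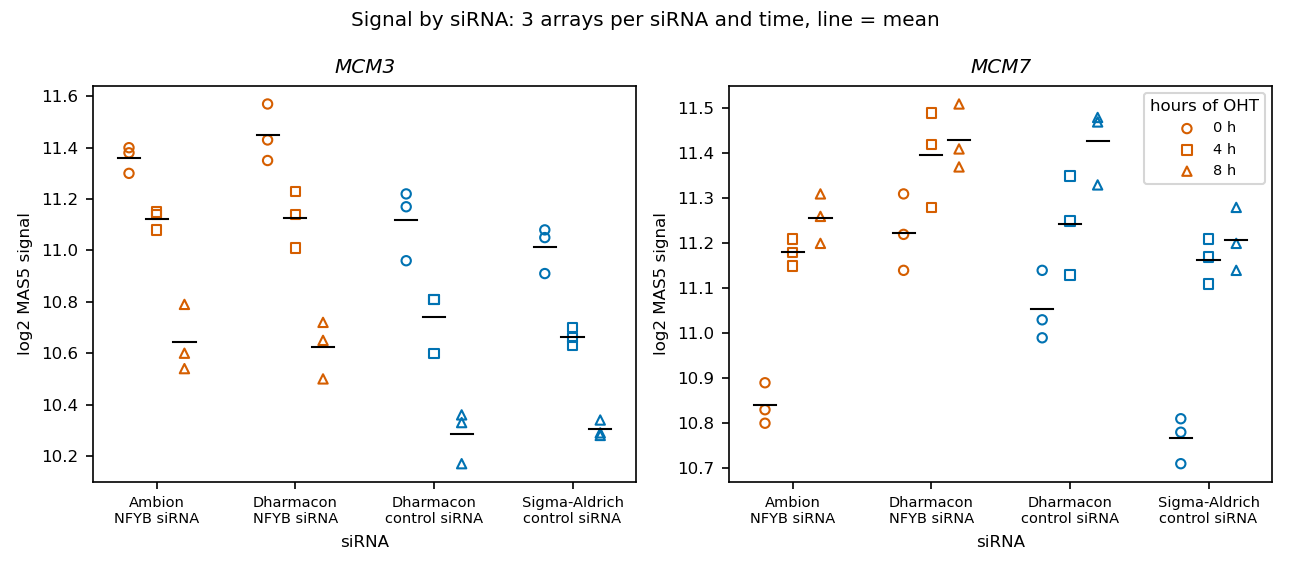
Log2 MAS5 signal of MCM3 and MCM7 by siRNA (NFYB siRNAs orange, control siRNAs blue), with 3 arrays per siRNA and time, marker shape giving hours of OHT and black lines the means. For MCM3 both NFYB siRNAs lie above both control siRNAs at matched times, while MCM7 is higher with both Dharmacon siRNAs at 0 h and 8 h, and at 4 h the Dharmacon control siRNA overlaps the others.

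A list of 28 other genes of origin licensing and firing was set beside the members, and 27 had a probe set of their own. At 8 h of OHT in control siRNA cells 14 of the 27 rose and 7 fell, where 21.1% of all genes rose and 34.3% fell. Cyclin E genes, whose kinase starts origin firing, rose most (CCNE2 3.27, CCNE1 2.90), followed by DBF4 (1.89), the activator of the CDC7 kinase, MCM9 (1.71), an MCM paralog, and RECQL4 (1.62), a helicase needed for initiation. ORC4 fell by 1.22, and of the further ORC subunits, named here after their values were seen, ORC2 (-1.43), ORC3 (-1.22) and ORC5 (-1.30) fell and ORC6 (0.65) rose. ORC1 to ORC5 were thus lower at 8 h and ORC6 higher. CDC7 fell by 0.73, opposite to its partner DBF4.

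With knockdown 1 of the 27 rose and 1 fell at 0 h, 3 rose at 4 h, and 3 rose and 1 fell at 8 h. Of all genes, 1.96%, 1.81% and 2.71% rose and 2.37%, 1.77% and 2.57% fell at 0, 4 and 8 h. At 8 h GMNN (0.61, adjusted p = 3.31e-05 in limma), which encodes geminin, the inhibitor of CDT1, rose. So did GINS2 (0.47, adjusted p = 0.000414), a subunit of the active helicase, and CDC7 (0.29, adjusted p = 0.0169). CDK2 fell (-0.26, adjusted p = 0.0464), with 3 of the 6 NFYB siRNA arrays below all control siRNA arrays. How these calls hold under other settings is not given here. ORC3 (0.26) and ORC5 (0.25) were not called. GMNN had 4176 to 5480 (median 4663) in NFYB siRNA cells and 2660 to 3548 (median 3078) in control siRNA cells at 8 h, without overlap, and 2389 to 2521 in NFYB siRNA cells and 2035 to 3013 in control siRNA cells at 0 h. It was the 1 gene of the list called for the difference of the 8 h responses (0.63, 0.37 to 0.90, adjusted p = 0.0220), where 0.293% of all genes were called. GMNN was also 0.35 lower with the Sigma-Aldrich than with the Dharmacon control siRNA. Averaged over the times, GMNN, GINS2 and CDK2 were called higher with the Dharmacon than with the Ambion NFYB siRNA, where 20.9% of all genes differed.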

How the data were processed

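All 36 Affymetrix arrays of U2OS ER-HA-E2F1 RNA were used. The authors isolated it with the RNeasy kit, labelled it after MessageAmp Premier amplification and obtained MAS5 values with Affymetrix Expression Console, which the submitters' processing notes name; its version is not given in the sources used here. The deposited unit is linear signal intensity. The authors had set the trimmed mean of every array to 500, with 2% of probe sets trimmed off either end, so a general rise or fall of RNA is scaled away. Of 22277 probe sets 62 controls were left out, and no array was.

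The log2 of the signal, without an offset, entered a limma 3.58.1 fit in R 4.3.3 of 6 groups (arm by time, siRNAs pooled as in the study, 36.3 degrees of freedom in all), whose variances were moderated on a trend of mean signal. Two-sided p-values were Benjamini-Hochberg adjusted over 22215 probe sets and called under 0.05, and intervals are 95%. Differences between siRNAs of an arm came from a fit of 12 groups. The labels call the replicates biological, and the number of arrays limits the precision. For knockdown the small number of siRNAs in each arm limits it too. In the fit of 12 groups 20.9% of all genes differed between the NFYB siRNAs and 30.7% between the control siRNAs. The adjusted p and intervals for knockdown from the fit of 6 groups do not allow for likeness among arrays of the same siRNA. Fewer members were called for knockdown at each time with the siRNA as a random block.

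Genes named are the 10 members, NFYB as the check of the knockdown, the 6 genes of the list of other origin genes with the smallest adjusted p for knockdown at 8 h and likewise for OHT at 8 h, the 5 genes of most similar pattern, and further genes where the text says so. The members and lists were chosen with earlier results of these data known. The fit was tested on simulated data. Promoter windows come from RefSeq (GRCh38.p14) and gene names from the platform annotation.

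Results were recomputed after quantile normalization, with an offset of 16, on the upper 60% of probe sets by signal, with no variance trend, on only the groups compared, with 12 groups, with the siRNA as a random block or the replicate number as a block, with each siRNA alone, by the methods' unequal-variance test, from the mean of a gene's probe sets and without each replicate number or array. Centring each array on its median, and the further E2F spelling, were added after seeing the data.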

Additional observations from a re-analysis of the deposited data

Results flagged for a closer look

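Among 60 groups of 6 arrays, 2 held an array far from the other 5, and chance alone gives about 1 such group in 20. MCM2 in control siRNA cells at 8 h had 1844 in replicate 1 of the Dharmacon control siRNA, the next array being at 1543 and the lowest at 1395. MCM6 in NFYB siRNA cells at 0 h had 3504 in replicate 1 of the Dharmacon NFYB siRNA, the next array being at 3996 and the highest at 4204. Tested within the 12-group fit, the Dharmacon and the Ambion NFYB siRNA differed in the mean over the 3 times for MCM5 and MCM7. The log2 differences were 0.14 for MCM5 and 0.26 for MCM7, and 20.9% of all genes were called so. The MCM5 call was lost without any 1 of 10 arrays, and its dimmer probe set was not called (adjusted p = 0.115).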

How the results depend on the processing

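Of 1250 values of single genes under other settings, no called value changed sign, 56 lost the call and 18 gained one, and 29 uncalled values changed sign. Counts of called members for OHT and for the difference of responses stayed within 1.5 times under every alternative run. The counts for knockdown did not. At 0 h, 4 members were called as deposited and 2 with no variance trend, only the groups compared, the siRNA as a random block, the Ambion NFYB siRNA alone, the Dharmacon control siRNA alone or the methods' unequal-variance test. At 4 h, 3 were called, and 5 with 12 groups. At 8 h, 4 were called, 2 with only the groups compared, and 1 with the random block, the Ambion NFYB siRNA alone, the Sigma-Aldrich control siRNA alone or the methods' test. Between the NFYB siRNAs 2 were called, and 1 without the trend. Leaving out a replicate number or an array gave 0 to 4 at 0 h, 2 to 3 at 4 h, 0 to 4 at 8 h, 1 to 3 between the NFYB siRNAs and 2 to 4 between the control siRNAs. Fits without a replicate number or an array, or with 1 siRNA alone, hold fewer samples. The cause of the other changes was not tested. At an unadjusted p under 0.001 and a ratio of at least 1.3, the methods' test passed 0, 2 and 0 members for knockdown at 0, 4 and 8 h of OHT. The share of all genes that passed this cut, or that was called in the other fits of this paragraph, is not given here. These counts of members are therefore not set against all genes.

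With the replicate block, 4, 3 and 3 members were called for knockdown at 0, 4 and 8 h, ORC1 at 8 h having an adjusted p of 0.0514, and no other call changed. Arrays of different conditions correlated at 0.908 to 0.959. With the means of the 12 conditions taken out, same-numbered arrays correlated at -0.19 to 0.29. The median r was 0.009, beside -0.003 for arrays of other numbers. In these values 16 of 36 arrays correlated best with the arrays of their own number. Whether that exceeds chance was not tested. Centring each array on its median gave 365 genes higher and 218 lower with knockdown at 0 h, 324 and 151 at 4 h and 590 and 188 at 8 h, beside 235 and 284, 217 and 212, and 324 and 308 as deposited. For 8 h against 4 h of OHT it gave 1254 higher and 1104 lower, beside 967 and 1501. ORC1 and CDT1 are the dimmest members, and the file gives no detection calls for them.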
